A study of Mus musculus with 8 samples.

Results

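The genes described here encode flavin monooxygenases and other oxidising enzymes of drug metabolism in mouse liver: Fmo1, Fmo2, Fmo4 and Fmo5, the aldehyde oxidases Aox1 and Aox3, the microsomal epoxide hydrolase Ephx1 and the cytochrome P450 reductase Por. They were chosen by name and by being listed in the deposited tables, and all 8 were listed among the 13774 genes of the table for transgenic mice and among the 11773 genes of the table for heterozygous mice. The names were chosen with earlier results of these data known, so their values are descriptions. Being listed is itself a measured condition, and the lowest gene means listed were 11.2 and 17.8 normalised reads. All 8 genes lay well above those limits, since Fmo4, the least abundant of them, averaged 580 and 163 normalised reads in the WT libraries of the 2 tables.

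Liver RNA came from C57BL/6 mice fed a diet with 42% fat for 8 weeks, controls included, with 2 libraries in each of 4 groups. Mice with a homozygous Ube3a transgene (TG) overexpress this ubiquitin ligase and were compared with a WT pair of their own. Heterozygous mice (het), in which 1 Ube3a allele is knocked out and 1 is WT, were compared with another WT pair. No source used here gives the promoter of the transgene or the age and sex of the mice. RNA markers of sex are given below with the other markers. Whether the 2 libraries of a group are from separate animals is not labelled, so the p-values measure the spread between these libraries, which may be technical. A value below is a normalised read count, that is, the reads of a gene divided by 1 factor per library, and the tables were normalised separately.

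These enzymes carry out phase I metabolism, in which a foreign or endogenous molecule is oxidised or hydrolysed before conjugation. Flavin monooxygenases sit in the endoplasmic reticulum, carry FAD and use NADPH and oxygen to oxidise nitrogen and sulfur atoms. Aldehyde oxidases are cytosolic enzymes with a molybdenum cofactor that oxidise aldehydes and nitrogen heterocycles, and mouse liver expresses AOX3 besides AOX1. EPHX1 opens epoxides that cytochromes P450 make, and POR passes electrons from NADPH to those cytochromes.

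The tables held 44193275 to 47928229 reads per library for TG and 13171145 to 17748088 for het. Ube3a counted 5991 and 5938 in the TG libraries against 1187 and 1359 in their WT libraries, and 301 and 280 in the het libraries against 369 and 409. The targeted gene thus lay on the labelled side in every library, although limma's adjusted p was 0.0586 in TG and 0.129 in het. Hepatocyte markers held the largest summed level of the cell type lists (3987000 to 5258000 in the TG table). No listed marker of any cell type stood at 0 in a whole group. The replicates were further apart in TG (median absolute log2 difference 0.224 over all genes) than in het (0.142).

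Of the 8 genes, 6 lie on chromosome 1. Coordinates are from GENCODE M21 on GRCm38, and the genes are all protein coding. Fmo4 (ENSMUSG00000026692, chr1:162793188-162813972), Fmo1 (ENSMUSG00000040181, chr1:162829561-162866610) and Fmo2 (ENSMUSG00000040170, chr1:162874317-162898726) lie on the minus strand, with 15.6 kb between Fmo4 and Fmo1 and 7.71 kb between Fmo1 and Fmo2. Aox1 (ENSMUSG00000063558, chr1:58029931-58106413) and Aox3 (ENSMUSG00000064294, chr1:58113130-58200698) are neighbours on the plus strand, 6.72 kb apart. Ephx1 (ENSMUSG00000038776, chr1:180976210-181020904) is on the minus strand of the same chromosome. Fmo5 (ENSMUSG00000028088, chr3:97628804-97655282) and Por (ENSMUSG00000005514, chr5:135670033-135735326) are on the plus strand of chromosomes 3 and 5.

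In normalised reads, Aox1 and Ephx1 were the genes of the 8 below both WT libraries in TG and above both in het. Aox3 is the neighbour of Aox1 without this pattern. For this reason the letters before the start sites of Aox1, Ephx1 and Aox3 are shown. They are taken from the RefSeq promoter table for GRCm38.p6, in which 7 of the 8 genes matched, and run 5′ to 3′ on the gene's strand. Bases that GENCODE places in an exon of the gene were left out. The stretches are chr1:58029719-58029930 on the plus strand for Aox1, chr1:181017570-181017819 on the minus strand for Ephx1 and chr1:58112886-58113129 on the plus strand for Aox3. The Ephx1 stretch lies before 1 of its start sites and within an intron of another of its transcripts, which begins further upstream. Capitals mark matches to the motifs named after them.
Aox1: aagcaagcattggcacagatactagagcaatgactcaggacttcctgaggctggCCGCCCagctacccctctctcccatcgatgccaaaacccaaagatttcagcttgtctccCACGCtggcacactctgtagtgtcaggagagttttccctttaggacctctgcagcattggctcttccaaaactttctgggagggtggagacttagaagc
Ephx1: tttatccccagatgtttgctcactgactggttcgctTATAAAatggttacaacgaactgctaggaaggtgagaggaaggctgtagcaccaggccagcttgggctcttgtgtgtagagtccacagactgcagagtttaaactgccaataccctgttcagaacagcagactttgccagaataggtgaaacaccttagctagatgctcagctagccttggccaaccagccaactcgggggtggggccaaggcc
Aox3: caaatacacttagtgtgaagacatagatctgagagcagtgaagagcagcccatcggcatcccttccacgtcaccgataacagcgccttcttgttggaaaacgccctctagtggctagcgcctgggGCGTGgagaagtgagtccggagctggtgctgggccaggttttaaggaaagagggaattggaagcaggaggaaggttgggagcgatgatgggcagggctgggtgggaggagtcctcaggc
In the 250 bases before each RefSeq start, 6 motifs were searched on both strands. These were the antioxidant response core TGACNNNGC (found in 10.2% of all 32851 promoters), the xenobiotic response core GCGTG (28.2%), the nuclear receptor half-site AGGTCA (14%), the E-box CACGTG (6.02%), the GC box GGGCGG (32.7%) and the TATA box TATAAA (12.4%). Aox1 held 1 xenobiotic core on the minus strand, 137 bases before the start, and 2 GC boxes, 196 and 27 bases before it, of which the second lies in the exonic bases left out. Aox3 held 1 xenobiotic core on the plus strand, 125 bases before its start. Ephx1 held only 1 TATA box, 214 bases before the start. None of the 7 genes held the antioxidant core in this window. Each match is a match of letters, which the xenobiotic core and the E-box can share where they overlap.

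Levels can be compared between genes once they are scaled to exon length. In RPKM, reads scaled to the kilobases of exon and to the library's reads, Ephx1 stood at 270 ± 39.2 (SD, n = 2) in the WT pair of TG, Por at 222 ± 38.5 and Fmo5 at 189 ± 24.8. Por was within the SDs of both Ephx1 and Fmo5, whereas Ephx1 and Fmo5 differed by more than theirs. Fmo1 followed at 76.2 ± 2.31 and Aox3 at 30.0 ± 9.66. Fmo2 stood at 14.9 ± 2.40, Aox1 at 8.88 ± 0.183 and Fmo4 at 3.46 ± 0.641. Below the top 3, neighbours in this order differed by more than their SDs. The WT libraries of the het table gave the same order except at the top, where Por (230 ± 21.1) and Fmo5 (193 ± 32.4) stood above Ephx1 (164 ± 0.957). FMO5 was thus the most abundant of the 4 flavin monooxygenase messages in both WT pairs, and AOX3 the more abundant aldehyde oxidase message.

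**Figure D1:**
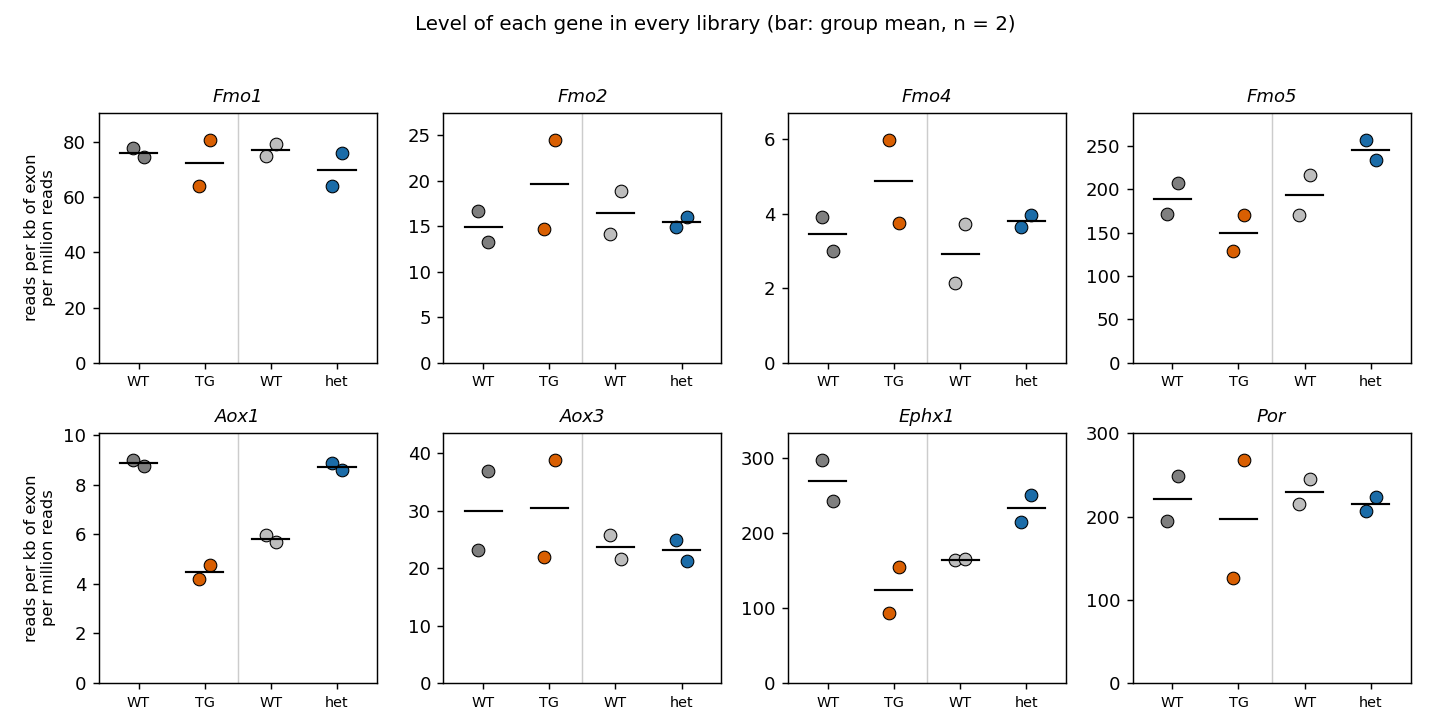
Level of each of the 8 genes in every library, in RPKM (reads per kb of exon, scaled to library size; vertical axes from 0); points are libraries and bars are group means (n = 2), with the TG table left and the het table right of the grey line. On this scale Aox1, Ephx1 and Fmo5 lie below their WT libraries in TG and above them in het. The points of the other genes, Fmo1, Fmo2, Fmo4, Aox3 and Por, overlap in both tables. In normalised reads Fmo5 overlaps in TG and Fmo4 in neither table.

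None of the 4 flavin monooxygenase genes passed limma, edgeR or DESeq2 in either comparison. Fmo1, which oxidises drugs and trimethylamine and is a major form of mouse liver, counted 22419 and 20999 in WT and 18535 and 24506 in TG. The TG libraries lay on both sides of the WT libraries, with a log2 fold change of -0.03 (95% interval -0.54 to 0.49). The het comparison had Fmo1 at 7159 and 7494 in WT and 6178 and 7258 in het. Here too the groups overlapped, with a log2 fold change of -0.13 (-0.40 to 0.15). Fmo1 shares 7.02% of its 50-base transcript stretches with other genes, more than any other of the 8, and no such stretch is shared between the 8 genes themselves.

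Fmo2, the form best known from lung, counted 4255 and 3309 in WT and 3759 and 6597 in TG. One TG library was inside the WT range and the other above it, and the log2 fold change of 0.41 had an interval of -0.40 to 1.22. For het, Fmo2 counted 1196 and 1578 in WT and 1274 and 1357 in het, so that both het libraries were inside the WT range.

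Fmo4, the least abundant member, counted 662 and 497 in WT and 1015 and 669 in TG. Both TG libraries lay above both WT libraries, the lower of them barely. Its het counts were close together: Fmo4 had 120 and 206 in WT against 207 and 223 in het. The groups did not overlap, but a WT library and a het library were nearly equal. The log2 fold changes of 0.52 (SE 0.26) and 0.45 (SE 0.26) had limma adjusted p of 0.595 and 0.488. On the scale of normalised reads, Fmo4 was the one gene of the 8 whose mutant libraries were above WT in both tables. Libraries of the 2 groups did not overlap for 43.5% of all genes in TG and 48% in het. The share of all genes above WT in both is not given. Scaled to RPKM, the Fmo4 libraries overlapped in both tables, so the separation depended on the scale. TG replicate 2 then stood at 3.76 against 3.91 in WT replicate 1 of its table. Het replicate 1 stood at 3.65 against 3.72 in WT replicate 2 of its table.

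Fmo5, which acts mainly as an oxidase and a Baeyer-Villiger enzyme and is linked to metabolic ageing in mice, counted 44523 and 52404 in WT and 33602 and 46397 in TG. One TG library was below the WT range and the other inside it (log2 fold change -0.29, interval -0.90 to 0.32). Among the het libraries and their controls it counted 14641 and 18343 in WT and 22355 and 20075 in het, where both het libraries were above WT. That difference was 0.37 (SE 0.14, interval 0.04 to 0.70), with a limma adjusted p of 0.289. The interval excluded 0 while the adjusted p, taken over all genes, did not pass. The ratio of Fmo1 to Fmo5 within a library was 0.504 and 0.401 in WT and 0.552 and 0.528 in TG, and 0.489 and 0.409 in WT and 0.276 and 0.362 in het.

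Aox1 had the smallest p of the 8 genes in both comparisons. It counted 3574 and 3394 in WT and 1660 and 1983 in TG, a mean 1.91-fold lower in TG, with a gap between the groups far wider than either pair's spread. For the het comparison it counted 783 and 737 in WT and 1177 and 1130 in het, a mean 1.52-fold higher in het, again with a gap wider than the spread. Aox1 rose in het by 0.60 on the log2 scale (SE 0.09, interval 0.39 to 0.81, limma adjusted p = 0.0249). In TG the log2 fold change was -0.94 (SE 0.14, interval -1.29 to -0.59), and limma's adjusted p of 0.263 did not pass. The same TG comparison passed in a limma fit of all 8 libraries (0.0243) and with DESeq2 on the recovered reads (0.000106), within a range of 0.000106 to 0.96 over the settings tried. The het call was lost on leaving out any 1 of the 4 libraries, with adjusted p of 0.067 and 0.0668 without WT replicate 1 or 2 and 0.135 and 0.0846 without het replicate 1 or 2, and in a fit of all 8 libraries (0.188); the log2 fold change stayed between 0.56 and 0.64.

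Aox3, the neighbouring aldehyde oxidase gene, passed in neither comparison. It counted 7452 and 11575 in WT and 7056 and 13137 in TG, so that the TG libraries lay outside the WT range on both sides. In the het table it counted 2749 and 2268 in WT and 2683 and 2267 in het, and each het library had a WT library close to it. The log2 fold changes were 0.05 (interval -0.95 to 1.05) in TG and -0.02 (-0.32 to 0.28) in het, and leaving out single libraries gave both signs in each table (-0.40 to 0.50 and -0.16 to 0.12). The TG interval is wide enough to hold a change of the size of Aox1, whereas the het interval is not.

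Within a library, Aox1 over Aox3 was 0.480 and 0.293 in WT and 0.235 and 0.151 in TG. In the other table the ratio was 0.285 and 0.325 in WT and 0.439 and 0.498 in het. The TG ratios lay below both WT ratios of their table and the het ratios above both of theirs, although the ratios of the first WT pair were themselves far apart. A ratio within a library shows unequal change of its 2 genes.

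**Figure D2:**
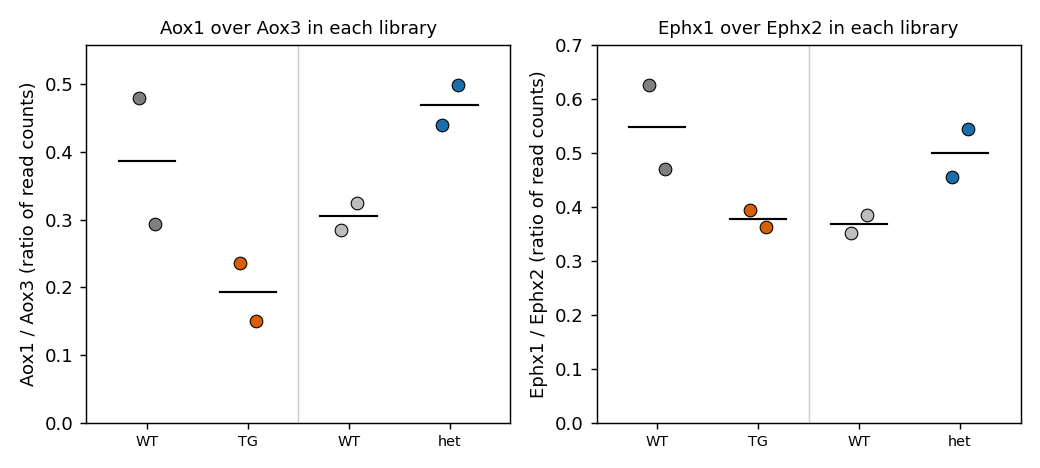
Ratio of read counts of Aox1 to Aox3 (left) and of Ephx1 to Ephx2 (right) in each library, on axes from 0; points are libraries, bars are group means (n = 2), and the grey line parts the TG table from the het table. Both ratios are lower in both TG libraries and higher in both het libraries than in the WT libraries of the same table.

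Ephx1, the microsomal epoxide hydrolase, followed the same pattern as Aox1 with more spread. It counted 26507 and 21089 in WT and 8354 and 14496 in TG, a mean 2.08-fold lower in TG. Both TG libraries lay below both WT libraries, but they differed 1.74-fold from each other. With its own WT pair, het had Ephx1 higher: it counted 4827 and 4804 in WT and 6398 and 7415 in het, a mean 1.43-fold higher in het, and the WT pair was nearly identical. The log2 fold changes of -1.10 (SE 0.31, interval -1.89 to -0.32) in TG and 0.52 (SE 0.12, interval 0.25 to 0.78) in het did not pass with limma (adjusted p = 0.518 and 0.0809). DESeq2 gave adjusted p of 0.0431 and 0.0115, and the ranges over all settings were 0.0431 to 0.96 and 0.0115 to 0.552. Ephx2, which encodes the soluble epoxide hydrolase, stood at -0.58 in TG and 0.08 in het on the log2 scale, and Ephx1 over Ephx2 was 0.626 and 0.471 in WT, 0.394 and 0.363 in TG, 0.352 and 0.386 in the second WT pair and 0.456 and 0.545 in het. Ephx1 shares 1.7% of its 50-base transcript stretches with 1 other gene. The pseudogene Gm36961 overlaps Ephx1 on the same strand and is not listed in either table.

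Por, whose protein supplies electrons to all microsomal cytochromes P450, counted 35716 and 44683 in WT and 23196 and 51816 in TG. The TG libraries lay on both sides of the WT pair and 2.23-fold apart, the widest gap between replicates among the 8 genes. For het, Por counted 13078 and 14705 in WT and 12728 and 13637 in het, with overlap. Its log2 fold changes were -0.20 (interval -1.30 to 0.89) and -0.07 (-0.35 to 0.20). The het interval holds no change of more than 0.35 on the log2 scale, and the TG interval holds changes of more than 2-fold in the lower direction. Por overlaps Gm43091 and Gm16061 on the other strand, neither of them listed, and no source used here says whether counting used strand, so that reads of these genes cannot be told apart.

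The 2 TG libraries differed in one direction for most of the 8 genes. In 7 of the 8 genes TG replicate 2 was higher than TG replicate 1, against 51.5% of all genes in those libraries. Fmo4 was the exception. Replicate 2 was the higher for 3 of the 8 in the WT pair of TG, and for 5 of the 8 in each group of the het comparison. The TG means of Fmo2, Aox3, Ephx1 and Por rest on libraries that stand 1.74-fold to 2.23-fold apart for these genes.

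**Figure D3:**
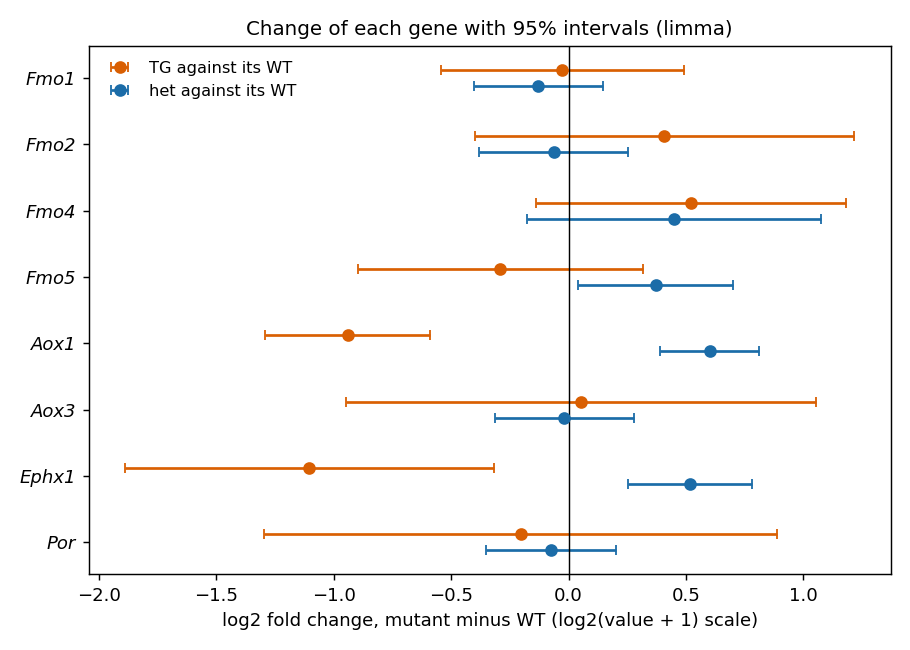
Log2 fold change of each gene (horizontal axis, mutant minus WT on the log2(value + 1) scale) in TG (orange) and in het (blue), with 95% limma intervals as bars. The intervals of Aox1 and Ephx1 lie on opposite sides of 0 in the 2 comparisons, and that of Fmo5 in het starts at 0.04.

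Counted together, limma called 0 of the 8 genes in TG, where it called 0% of all 13774 genes. At an unadjusted p under 0.05 the TG comparison held 1256 genes (9.12%), of which 2 were members, Aox1 and Ephx1. The share of all genes at that threshold is not given for het, so het counts at it have no background beside them. On the recovered reads edgeR called 0 genes in TG and DESeq2 called 188 (1.36%), again including Aox1 and Ephx1; without TG replicate 2, limma called 146. In het limma and edgeR each called 1 of the 8, Aox1, where they called 1.44% and 1.55% of all genes, and DESeq2 called Aox1 and Ephx1 (2.45% of all genes); in a single fit of all 8 libraries limma called 25 genes in TG, Aox1 among them, and 0 in het. In normalised reads, the libraries did not overlap for 3 of the 8 genes in TG (43.5% of all genes). In het this held for 4 of the 8 (48%), and both shares were close to or below the background. Being lower than WT in both TG libraries and higher in both het libraries was seen for 2 of the 8 genes and for 7.86% of all genes. Fmo5 had this pattern as well in RPKM, a scale without a share of all genes beside it. The median log2 fold change of the 8 was -0.12 in TG and 0.18 in het, beside medians of 0.0014 and -0.00074 over all genes.

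The TG effect and the het effect were compared over all 8 libraries, with no control library in common. Aox1 was the one gene of the 8 whose effects differed (0.434% of the 11754 genes in both tables were called), by -1.54 on the log2 scale (SE 0.16, interval -1.91 to -1.17, limma adjusted p = 0.0165). The call was kept without any single library of the TG table (0.00123 to 0.0487). It was lost without WT replicate 1 (0.0962) or 2 (0.0644) of the het table and without het replicate 1 (0.134) or 2 (0.0929), at differences of -1.59 to -1.50. Ephx1 differed by as much, -1.62 (SE 0.36, interval -2.45 to -0.79), but its adjusted p was 0.111. It passed without TG replicate 1 (0.0448) or TG replicate 2 (0.00312) and with DESeq2 (0.000609, where 3.16% of genes were called), in a range of 0.000609 to 0.348. The difference for Fmo5 was -0.66 (interval -1.33 to 0.01, limma adjusted p = 0.304), and the other 5 genes had adjusted p of 0.582 to 0.958.

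The 2 WT pairs did not stand at the same level for Aox1 and Ephx1. In RPKM, Aox1 was 8.88 ± 0.183 (SD, n = 2) in the WT pair of TG and 5.81 ± 0.195 in that of het. The het libraries stood at 8.72 ± 0.196, near the first WT pair, and the TG libraries at 4.46 ± 0.409. Ephx1 was 270 ± 39.2 and 164 ± 0.957 in the 2 WT pairs, 233 ± 25.8 in het and 124 ± 43.3 in TG. Fmo1 (76.2 and 77.3) and Fmo5 (189 and 193) stood at nearly the same level in both WT pairs. The tables were normalised separately and differ in depth, and the part of this in the opposite shifts of Aox1 and Ephx1 was not tested.

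Markers of 2 other liver cell types mostly had the same sign as Aox1 and Ephx1. In bulk tissue, fewer cells of a type and less RNA per cell cannot be told apart. All 14 endothelial markers had log2 fold changes below 0 in TG (median -0.30), with summed values of 23440 to 23470 in WT and 19260 to 19590 in TG; 13 of 14 were above 0 in het (median 0.32), with sums of 5816 to 6146 in WT and 6997 to 7114 in het. Of the endothelial markers, 2 passed in het with limma and 0 in TG, where 3 had an unadjusted p under 0.05 and edgeR and DESeq2 called 0. Of 13 Kupffer cell and macrophage markers, 12 were below 0 in TG (median -0.35, sums 33800 to 36090 in WT and 22090 to 30010 in TG) and 11 above 0 in het (median 0.22, sums 8276 to 11360 in WT and 9618 to 13280 in het). Limma, edgeR and DESeq2 called 0 of these 13 in either comparison. With limma 2 in TG and 1 in het had an unadjusted p under 0.05. None of these markers stood at 0, and their part in the Aox1 and Ephx1 values was not tested. Stellate cell markers were split evenly in TG, with 6 of 12 below 0 (sums 24600 to 25620 in WT, 22940 to 30340 in TG). In het 8 of 12 were below 0 (7856 to 8079 in WT, 7351 to 7801 in het). Lymphocyte markers were below 0 for 7 of 8 in TG and for 2 of 3 in het. Of the cholangiocyte markers 5 of 6 were below 0 in TG, and the 1 listed in het was above 0 (0.02). The 1 fat cell marker listed in TG was below 0 (-0.38). The 2 listed in het were above 0 (median 1.7), where limma called 0 and edgeR and DESeq2 each called 1. Their part was not tested either.

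The zones of the liver lobule and other markers gave further values. Of 12 pericentral hepatocyte markers, 9 were above 0 in TG (median 0.21) and 10 below 0 in het (median -0.36), opposite in sign to Aox1 and Ephx1. Their sums were 524200 to 688000 in WT and 455000 to 820900 in TG, and 251600 to 258600 in WT and 180900 to 224300 in het. General hepatocyte markers were above 0 for 9 of 10 in TG (median 0.30) and for 4 of 10 in het (median -0.06). Periportal markers were below 0 for 7 of 11 in TG and above 0 for 6 of 11 in het. In het, the 4 listed mesothelium markers were all below 0 (median -2.08, sums 257 to 258 in WT and 54.3 to 77.1 in het), and 3 of them passed with limma. Of the markers of male-biased liver expression, 10 of 13 were below 0 in het (2 called) and 9 of 14 above 0 in TG. Xist, the RNA of the inactive X chromosome of females, averaged 43524 in WT and 49273 in TG, and 14359 in WT and 13843 in het. The Y chromosome genes Ddx3y, Kdm5d, Eif2s3y and Uty, also on the male-biased list, were listed for neither comparison. These are values of female liver in every group, although the labels do not give sex. The part of these lists in the members' values was not tested.

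**Figure D4:**
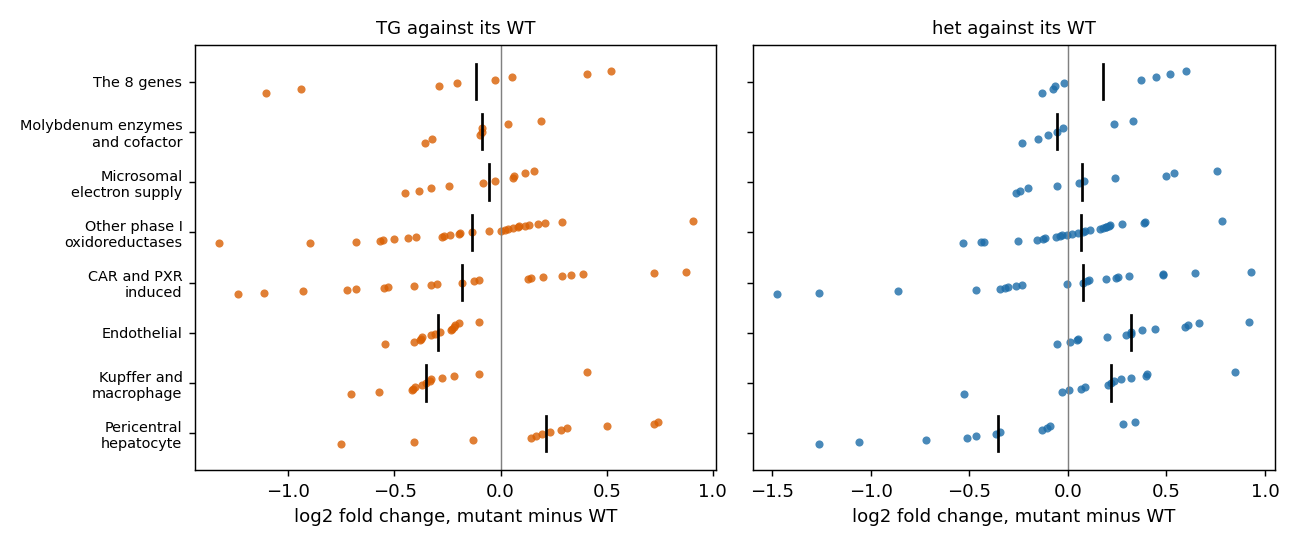
Log2 fold change (horizontal axes, mutant minus WT) of every listed gene of the 8 described here, of 4 pathway lists and of 3 marker lists, in TG (left) and in het (right); a point is a gene and the black bar is the list's median. The 14 endothelial markers lie below 0 in TG and 13 of them above 0 in het, and the pathway lists are spread on both sides of 0.

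Over the 8 libraries, each expressed relative to the WT mean of its own table, Aox1 and Ephx1 had a Pearson r of 0.963. Fmo5 was next to them, with r of 0.831 to Aox1 and 0.823 to Ephx1. Aox3 varied with Por (0.779) and Fmo1 with Por (0.734) and Fmo2 (0.700), whereas Aox1 and Aox3 had an r of -0.0018. The shifts of TG and het from WT enter each r, so genes that share those shifts have a higher r. These values describe 8 libraries that share table and group, and carry no test. Among 8775 genes with a mean of at least 100 in each table, the 2 most like Aox1 were Col4a2, a basement membrane collagen (r = 0.994), and Srxn1, sulfiredoxin (0.992). Those most like Ephx1 were Laptm4b (0.998) and Bscl2, which encodes the lipid droplet protein seipin (0.997). Those most like Fmo5 were Pex7, a peroxisomal import receptor (0.995), and Ugt2b1, a glucuronosyltransferase (0.994). An r over 0.95 was reached by 137 genes for Aox1, 177 for Ephx1 and 47 for Fmo5, but by 1 to 8 genes for each of the other 5. For Fmo1 the nearest were Atg101 (0.972) and Hbs1l (0.960), for Fmo2 Rexo4 (0.958) and Trim24 (0.948), for Fmo4 Plscr1 (0.966) and Lpp (0.955), for Aox3 Mrps18c (0.990) and Supt6 (0.967), and for Por Qsox2 (0.966) and Tsta3 (0.962).

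Of the genes beside the members, Kctd18, Prkab2 and Tmem120a were below both WT libraries in TG and above both in het, as Aox1 and Ephx1 were. Prrc2c, Chd1l, Bzw1, Tmem63a, 9130409I23Rik and Rhbdd2 were not. Among all genes in both tables, 7.86% had this pattern. Aox1 lies between Kctd18 (log2 fold change -0.18 in TG and 0.26 in het), and Aox3 (0.05 and -0.02). Ephx1 lies between Tmem63a, 1.1 kb away (0.12 and -0.09), and 9130409I23Rik, 30.3 kb away, which had values of -2.01 in TG (limma adjusted p = 0.102) and 0.81 in het (0.599). The libraries of 9130409I23Rik overlapped in het. Tmem120a, 0.159 kb from Por, had values of -0.93 in TG and 0.62 in het (limma adjusted p = 0.534 and 0.0993), while Por itself overlapped in both tables. Beside Fmo5, Chd1l (-0.41 and 0.07) and Prkab2, an AMP kinase subunit (-0.50 and 0.10), were both below their WT libraries in TG. Prrc2c, 52.6 kb from Fmo4, had values of 0.21 and 0.01. Bzw1, 192 kb from Aox3, stood at 0.11 and 0.09, and Rhbdd2, 23.6 kb from Por, at -0.35 and 0.01.

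Among the enzymes that share the molybdenum cofactor of the aldehyde oxidases, and the genes that make it, 0 of 7 listed passed limma, edgeR or DESeq2 in either comparison; 0 reached an unadjusted p under 0.05 in TG and 1 did in het. Xdh, xanthine dehydrogenase, the closest listed relative, stood at -0.09 in TG and -0.10 in het on the log2 scale. Suox, sulfite oxidase, stood at 0.23 in het, and Mocos, the sulfurase that activates aldehyde oxidases, 0.33 (limma adjusted p = 0.355 and 0.272). In TG the smallest p were those of Mocs3 (-0.36) and Mocs2 (0.19), both enzymes of cofactor synthesis. Of the other epoxide hydrolases, Ephx2 and Lta4h were listed, and Lta4h stood at -0.32 in TG and -0.01 in het.

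The list of microsomal electron supply also held relatives from outside the microsomes, among them Nos3, the endothelial nitric oxide synthase, Mtrr, Ndor1 and Cyb5b. Of its 10 listed genes, 0 passed in TG with limma, edgeR or DESeq2 (1 at an unadjusted p under 0.05). In het limma and edgeR called 1, Pgrmc2, and DESeq2 called 2, Pgrmc2 and Cyb5r3 (0.50), with 3 at an unadjusted p under 0.05. These 3 were Pgrmc2, Cyb5r3 and Nos3. Pgrmc2, a heme-binding membrane protein of the reticulum, rose from 1079 ± 122 to 1828 ± 255 in het (SD, n = 2; log2 fold change 0.76, limma adjusted p = 0.0376), a call lost without WT replicate 1 (0.13) or het replicate 1 (0.167) and without robust estimates (0.0562). The Pgrmc2 call in het was lost in a limma fit of all 8 libraries too (adjusted p = 0.325). In TG Pgrmc2 had a log2 fold change of -0.33. Of 10 enzymes that take electrons from POR outside drug metabolism, Cyp17a1, the steroid 17-hydroxylase and lyase, rose in het from 2356 ± 144 to 3975 ± 142 (SD, n = 2; 0.76, limma adjusted p = 0.0155); the call was lost without WT replicate 1 (0.0744), het replicate 1 (0.0954) or het replicate 2 (0.0513). A limma fit of all 8 libraries did not call Cyp17a1 in het (adjusted p = 0.548). DESeq2 called 3 of the 10 in het, Cyp17a1, Sqle (1.01) and Dhcr7 (0.73). With limma 7 had an unadjusted p under 0.05, a count without a share of all genes beside it. Cyp17a1 is also on the list of markers of female-biased liver expression, of which 7 of 14 were above 0 in het. Among these 10 enzymes 0 passed in TG with limma or edgeR, and 1 had an unadjusted p under 0.05 and a DESeq2 call. That gene was Cyp39a1, an oxysterol hydroxylase, which stood at 1.52 in TG and -0.59 in het (limma adjusted p = 0.45 and 0.121). Of the 10 genes that supply FAD and NADPH, 0 passed in either comparison with limma, edgeR or DESeq2 (0 in TG and 4 in het at an unadjusted p under 0.05), and 9 of 10 were above 0 in het, among them the pentose phosphate enzymes G6pdx (0.66) and Pgd (0.57).

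Other phase I oxidoreductases were mixed, with 12 of 27 above 0 in TG and 15 of 26 in het, and 0 passed limma or edgeR in either comparison. At an unadjusted p under 0.05 there were 3 in TG and 5 in het, and DESeq2 called 1 in TG, Aldh1a1, and 2 in het, Akr1c6 and Aldh1a7. Aldh1a1, retinal dehydrogenase, was the widest in TG, at 77950 ± 1209 in WT and 32623 ± 14144 in TG (SD, n = 2; -1.33, limma adjusted p = 0.496). In het its log2 fold change was 0.21. Aldh1a7 stood at -0.90 in TG and 0.78 in het, and the difference of its effects was -1.68 (limma adjusted p = 0.159). In het, Adh4, an alcohol dehydrogenase, had -0.44 and Akr1c6, an aldo-keto reductase, -0.53 (limma adjusted p = 0.0734 and 0.0801). Aldh1a1 and Aldh1a7 thus had the signs of Aox1, and Adh4 and Akr1c6 in het the opposite sign.

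Ephx1 is a textbook target of the drug-sensing receptors CAR and PXR. Nr1i3, which encodes CAR, had a log2 fold change of -0.60 in TG and -0.18 in het, and Nr1i2, which encodes PXR, -0.09 and 0.34. Of 13 listed regulators 0 passed in TG with limma, edgeR or DESeq2 (0 at an unadjusted p under 0.05) and 1 in het, Ahr, the aryl hydrocarbon receptor, which fell from 549 ± 40.0 to 365 ± 5.74 (SD, n = 2; -0.59, limma adjusted p = 0.0403). That call was lost without any 1 of the 4 libraries (0.0764 and 0.112 without WT replicate 1 or 2, 0.169 and 0.132 without het replicate 1 or 2) and without robust estimates (0.0627). Ahr in het did not pass in a limma fit of all 8 libraries either (adjusted p = 0.408). Nfe2l2, which encodes the oxidant sensor NRF2, had 0.20 in TG and 0.04 in het. Of 21 other genes induced through CAR and PXR, 0 passed in TG with limma, edgeR or DESeq2 (2 at an unadjusted p under 0.05). In het limma and edgeR called 2, both lower, and DESeq2 called 4, with Cyp2c29 (-0.47) and Cyp2c54 (-1.47) besides. The 2 that limma called were Cyp2c37 (-1.26) and Cyp2c50 (-0.86), with limma adjusted p of 0.00777 and 0.0247. The second was lost without WT replicate 2 (0.0637), het replicate 1 (0.128) or het replicate 2 (0.0523), and Cyp2c37 is also among the pericentral markers. In a limma fit of all 8 libraries neither Cyp2c37 nor Cyp2c50 passed in het (adjusted p = 0.255 and 0.473). Cyp2b10, the classic CAR target, stood at -0.55 in TG and -0.30 in het, and the transporter gene Abcc4 at -1.11 and 0.93. So genes of this list stood on either side of 0 in both comparisons, 8 of 21 above 0 in TG and 11 of 21 in het.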

How the data were processed

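Libraries were made from total liver RNA with a TruSeq kit, per the labels' protocols. Subread 1.5.2, featureCounts, DESeq2 and mm10/GRCm38 are named, without roles, in the submitters' processing notes; no source used here gives the annotation or strand setting. Deposited signal values are gene read counts that the authors divided by 1 factor per library, since 100% of entries were whole multiples of 1 read's worth within 0.001. Each mutant was compared with the WT pair of the same table by limma 3.58.1 (trend and robust, R 4.3.3) on log2(value + 1), which understates the change of low genes, with Benjamini-Hochberg adjusted p under 0.05 over all genes, two-sided. The difference of effects used the 11754 genes in both tables; gene names turned into dates (20 and 18 entries) were left out there. Levels per kb used GENCODE exon lengths and the reads listed.

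The members, gene lists and markers were chosen with earlier results of these data known, so their values are descriptions. Genes named were the members, Ube3a, and called genes of each list (up to 4) or else the 2 of smallest p. The 2 nearest by Pearson r and adjacent listed genes were named too. Xdh, Nr1i2, Nfe2l2, Nos3, Aldh1a1 in het, Xist, genes that DESeq2 alone called and markers beside these were chosen after their values were seen. Certain genes picked by this rule are not reported here. The alternatives tried were edgeR 4.0.16 and DESeq2 1.42.0 on recovered reads, pseudocounts of 0.5 and 5, a mean CPM of at least 1, no robust estimates, TMM scaling, library size without the 20 most abundant genes, all 8 libraries in a single fit, a replicate block and leaving out each library, which leaves an arm with 1 library assumed to vary like the others. The scripts were tested on simulated data.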

Additional observations from a re-analysis of the deposited data

Results flagged for a closer look

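Aox1 differed between the TG and the het comparison: its TG effect minus its het effect was -1.54 on the log2 scale (limma adjusted p = 0.0165 over all genes). Both TG libraries were below both of their WT libraries and both het libraries above both of theirs. The WT pairs themselves stood at 8.88 and 5.81 RPKM (reads scaled to exon length and library size), and the part of this was not tested.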

How the results depend on the processing

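Of 232 values of the 8 genes under settings that keep all libraries, 226 kept direction and side of the threshold, 5 newly passed, 1 no longer passed and 0 changed sign. Of 128 values with a library left out, 98 kept both, 8 no longer passed, 2 newly passed and 20 changed sign. The count of called genes in TG went from 0 to 188 with DESeq2 and 25 in a single fit of all 8 libraries, and ranged from 0 to 146 without single libraries (6 without TG replicate 1, 146 without TG replicate 2). In het it went from 169 to 289 with DESeq2, 93 without robust estimates and 0 in the single fit, and ranged from 61 to 173 (65 without WT replicate 1, 61 without het replicate 1, 105 without het replicate 2). For the difference of effects it went from 51 to 371 with DESeq2 and ranged from 5 without WT replicate 1 of het to 643 without TG replicate 2, with every single library moving it by over 1.5 times. The cause was not tested. Signs changed only on leaving out a library: in TG, Fmo1 ranged from -0.23 to 0.18, Aox3 from -0.40 to 0.50 and Por from -0.78 to 0.38; in het, Fmo2 from -0.26 to 0.14, Aox3 from -0.16 to 0.12, Por from -0.16 to 0.0107 and Lta4h from -0.0704 to 0.0589; for the difference, Fmo1 from -0.10 to 0.31, Fmo4 from -0.31 to 0.46, Aox3 from -0.38 to 0.52 and Por from -0.71 to 0.45. Replicate numbers are shared between groups but name no common source, and same-numbered libraries had deviations with r of 0.107 (TG) and -0.0426 (het) across genes. With the replicate block, limma called 0 genes in TG, 138 in het and 46 for the difference; Pgrmc2 in het then had an adjusted p of 0.0583, and no call of the 8 genes changed. Each group held 2 libraries, and the parts of depth and of the spread between libraries in these values were not tested. Fmo4, at 123 to 240 reads in the het table, is the thinnest.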
